A study of Mus musculus with 12 samples.

Results

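DNA methylation of the Hox genes of clusters A to D was measured by reduced representation bisulfite sequencing in sorted mouse leukaemia cells. Bisulfite converts unmethylated cytosine and spares methylated cytosine, so sequenced fragments record the state of each CpG they cover. The members are 38 named Hox genes of the 21631 protein-coding genes in the annotation table. Each gene was read as a window from 1 kb outside one annotated end through the gene to 1 kb outside the other. A CpG was used where both strands together had at least 10 calls in every one of the 12 libraries, and all 38 windows held at least 3 such CpGs, as did 16539 protein-coding genes. The Hox windows held 2607 of the 1052856 CpGs used, between 21 and 303 per window with a median of 67.5. Neighbouring Hox windows overlap, and 335 of these CpGs lay in more than 1 window: the window of Hoxa3 contained every CpG of Hoxa4, Hoxa5 and Hoxa6, that of Hoxb3 every CpG of Hoxb4, and that of Hoxd3 every CpG of Hoxd4.

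C57BL/6 mice received CMM cells, the submitters' name for GFP-marked cells of an acute myeloid leukaemia model with inv(16), by the intravenous route. Once about 1% of blood cells were GFP+, mice were injected intravenously with PBS or with CpG-STAT3dODN, a STAT3 decoy oligonucleotide joined to a CpG oligonucleotide, every other day for 3 injections, and the spleens were collected 1 day after injection 3. The PBS group is GFP+ cells of PBS mice (4 libraries). The CD11b-negative group is GFP+CD11b- cells (4 libraries) and the CD11b-positive group is GFP+CD11b+ cells (4 libraries), both from mice given CpG-STAT3dODN, and CD11b is a surface integrin of myeloid cells. All groups share the same leukaemia and the same organ. The PBS group had no CD11b sort, so treatment and sort cannot be told apart in either comparison with PBS. The comparisons ask whether DNA methylation differs between the CD11b-positive cells, the CD11b-negative cells and the cells of untreated leukaemia. The labels do not say that libraries come from separate mice, and the p-values therefore cover no more than library-to-library spread, part of which may be technical.

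Hox genes encode homeodomain transcription factors that give cells their position along the body axis. Within a cluster all Hox genes are transcribed in one direction, and their order, from paralogue 1 to paralogue 13, follows the order in which they are used from head to tail. Polycomb proteins keep silent Hox genes shut over CpG-rich DNA that is usually unmethylated, and Trithorax proteins such as Kmt2a keep active ones open. In blood, HoxA and HoxB genes are active in stem and progenitor cells and are turned down as cells mature, and Hoxa9 with its cofactor Meis1 drives self-renewal in many leukaemias.

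RefSeq promoter sequences (GRCm38.p6) matched 22 of the 38 genes by symbol. The 250 bases before the start are shown for 5 of them because they span the range of methylation found over these clusters and include Hoxd1, whose promoter is the one called below. Each is written 5′ to 3′ on the strand of its gene, and capitals mark the CpGs that were measured in all libraries.
Hoxd1, chr2:74762730-74762979, plus strand: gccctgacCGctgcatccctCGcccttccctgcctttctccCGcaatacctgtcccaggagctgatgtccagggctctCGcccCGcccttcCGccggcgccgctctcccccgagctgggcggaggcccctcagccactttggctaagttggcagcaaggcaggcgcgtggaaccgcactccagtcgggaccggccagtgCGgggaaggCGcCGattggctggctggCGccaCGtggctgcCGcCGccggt
Hoxd9, chr2:74697513-74697762, plus strand: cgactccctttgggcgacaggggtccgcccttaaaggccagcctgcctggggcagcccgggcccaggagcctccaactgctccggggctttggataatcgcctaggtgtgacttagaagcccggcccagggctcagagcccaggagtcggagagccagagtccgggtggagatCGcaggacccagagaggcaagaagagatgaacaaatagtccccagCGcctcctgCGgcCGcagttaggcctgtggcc
Hoxa6, chr6:52208673-52208922, minus strand: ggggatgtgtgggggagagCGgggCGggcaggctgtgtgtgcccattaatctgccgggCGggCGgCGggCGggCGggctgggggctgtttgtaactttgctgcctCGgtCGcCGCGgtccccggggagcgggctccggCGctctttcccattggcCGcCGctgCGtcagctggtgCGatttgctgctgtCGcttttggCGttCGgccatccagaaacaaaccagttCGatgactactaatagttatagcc
Hoxa5, chr6:52204588-52204837, minus strand: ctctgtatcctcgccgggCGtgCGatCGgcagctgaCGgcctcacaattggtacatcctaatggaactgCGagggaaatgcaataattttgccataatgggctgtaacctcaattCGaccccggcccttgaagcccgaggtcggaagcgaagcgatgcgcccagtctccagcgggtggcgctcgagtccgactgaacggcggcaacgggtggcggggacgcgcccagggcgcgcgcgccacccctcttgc
Hoxa13, chr6:52260881-52261130, minus strand: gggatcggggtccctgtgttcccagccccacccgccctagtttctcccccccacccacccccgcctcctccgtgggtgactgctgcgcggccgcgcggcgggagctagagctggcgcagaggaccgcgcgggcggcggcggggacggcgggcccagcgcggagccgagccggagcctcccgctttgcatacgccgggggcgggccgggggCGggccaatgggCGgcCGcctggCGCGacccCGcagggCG
Mean methylation over the capital CpGs of the Hoxd1 stretch was 19.2% ± 2.75 in PBS, 13.9% ± 6.39 in CD11b-negative and 9.82% ± 4.54 in CD11b-positive libraries (SD, n = 4 each). The 20 measured CpGs before Hoxa6 stood at 24.1% ± 2.96 in PBS and 10.9% ± 4.85 in CD11b-positive libraries, and the 4 before Hoxd9 at 24.2% ± 5.80 and 11.5% ± 6.10. Over the full 300-base promoters these differences were -13.9 points in Hoxa6 (adjusted p = 0.0696) and -10.7 in Hoxd9 (0.0812), larger than the -10.6 of Hoxd1 but not called. Of the 28 CpGs before Hoxa5, 6 were measured, all between 135 and 232 bases before the start. They were heavily methylated, at 76.9% ± 3.47 and 82.9% ± 3.5. The measured CpGs nearest the start were the lowest, at 57.8% and 35.8% in PBS, and the bases beyond them have no value. Of the 35 CpGs before Hoxa13, 7 were measured, all within 40 bases of the start. They were almost free of methylation, at 0.834% ± 0.401 and 1.03% ± 0.681. The method usually cuts DNA with MspI, whose site is CCGG on both strands. Within such stretches of 250 bases, these letters occur in 18 of 24 Hox promoters (75%) and in 47.1% of all 32851 promoters in the table. The Hox stretches also hold more CpGs, with a median of 12.5 beside 6 over all promoters.

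Libraries held between 112671408 and 157223205 calls, and the median Hox CpG had between 63 and 96 calls per library. The mean methylation of all CpGs used was 31.4% ± 0.292 in PBS, 33.1% ± 1.59 in CD11b-negative and 34.7% ± 0.81 in CD11b-positive libraries (SD, n = 4 each, as for every ± below). Over CpG-dense DNA, where at least 25 CpGs of the files lay within 250 bases to each side, the library numbered 2 was the lowest of every group, at 9.43% beside 10.2% to 10.9% in PBS, 6.23% beside 9.67% to 10.8% in CD11b-negative and 6.25% beside 8.38% to 9.06% in CD11b-positive libraries. Calls on Y-linked genes per 1000000 autosomal calls were 5.52 to 18.6 in PBS, 8.64 to 40.2 in CD11b-negative and 23.8 to 41.3 in CD11b-positive libraries, with the highest value of each group in library 2, and the PBS and CD11b-positive ranges do not overlap. Mean methylation of CpGs on the X chromosome was 53.4% to 57.2%, 47.6% to 57.0% and 48.0% to 54.8% in the same order. The files hold no expression, so cell identity could be read only as methylation of marker genes. Library means over the measured B cell markers (5 of 8) were 36.6% to 41.2% in PBS and 47.6% to 57.9% in CD11b-positive libraries, over the T and NK cell markers (7 of 8) 29.6% to 35.1% and 42.4% to 48.7%, over the erythroid markers (6 of 7) 35.2% to 39.2% and 45.4% to 51.5%, over the neutrophil and monocyte markers (7 of 8) 42.3% to 48.2% and 53.2% to 69.0%, and over the stromal markers (5 of 5) 43.4% to 45.4% and 46.7% to 57.0%. In bulk DNA, fewer cells with a methylated allele and less methylation per cell cannot be told apart. The part of these differences between libraries in the Hox results was not tested beyond the fits given beside each result.

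In PBS libraries most Hox DNA was weakly methylated. Of the 38 gene windows, 28 had a group mean under 20%, and the median window stood at 9.77%. The same held for single CpGs, of which 1862 of 2607 were under 20%, 636 between 20% and 80% and 109 over 80%. HoxA was the exception at its front end, where Hoxa2, which patterns the hindbrain and the second pharyngeal arch, stood at 36.3% ± 3.19, Hoxa3, needed for thymus and parathyroid, at 58.6% ± 2.08, and Hoxa4 at 54.5% ± 6.06. Hoxa5, a regulator of lung and axial development, was the most methylated Hox gene at 79.2% ± 1.10, and Hoxa6 stood at 59.5% ± 3.17. The Hoxa6 window also reaches over the start of Hoxa5, and the 37 CpGs around the 5′ end of Hoxa6 stood at 36.2% ± 3.60. From Hoxa7 onward the cluster was nearly bare: 4.51% ± 0.658 in Hoxa7, 6.11% ± 0.504 in Hoxa9, 7.14% ± 0.529 in Hoxa10, 6.83% ± 0.993 in Hoxa11 and 2.01% ± 0.28 in Hoxa13, the gene of distal limb and urogenital development. The 85 HoxA CpGs over 80% outnumbered those of the other clusters, 23 in HoxB, 0 in HoxC and 1 in HoxD.

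The step inside HoxA was sharp. The tile chr6:52204001-52205000 at the start of Hoxa5 had 79.4% ± 1.34 methylation in PBS libraries, and the tile chr6:52208001-52209000 at the start of Hoxa6, the next measured one toward Hoxa13, had 33.8% ± 3.58. The tile after that, chr6:52211001-52212000, had 1.71% ± 1.38 over 3 CpGs, and chr6:52212001-52213000 had 4.22% ± 1.33 over 12 CpGs. Beyond it the highest of the 17 tiles up to Hoxa13 reached 26.7% ± 2.25, within the annotated span of Hoxa10. The step kept its place in all 3 groups, since the CD11b-positive means of the same 4 tiles were 84.5%, 27.5%, 0% and 2.02%.

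**Figure D1:**
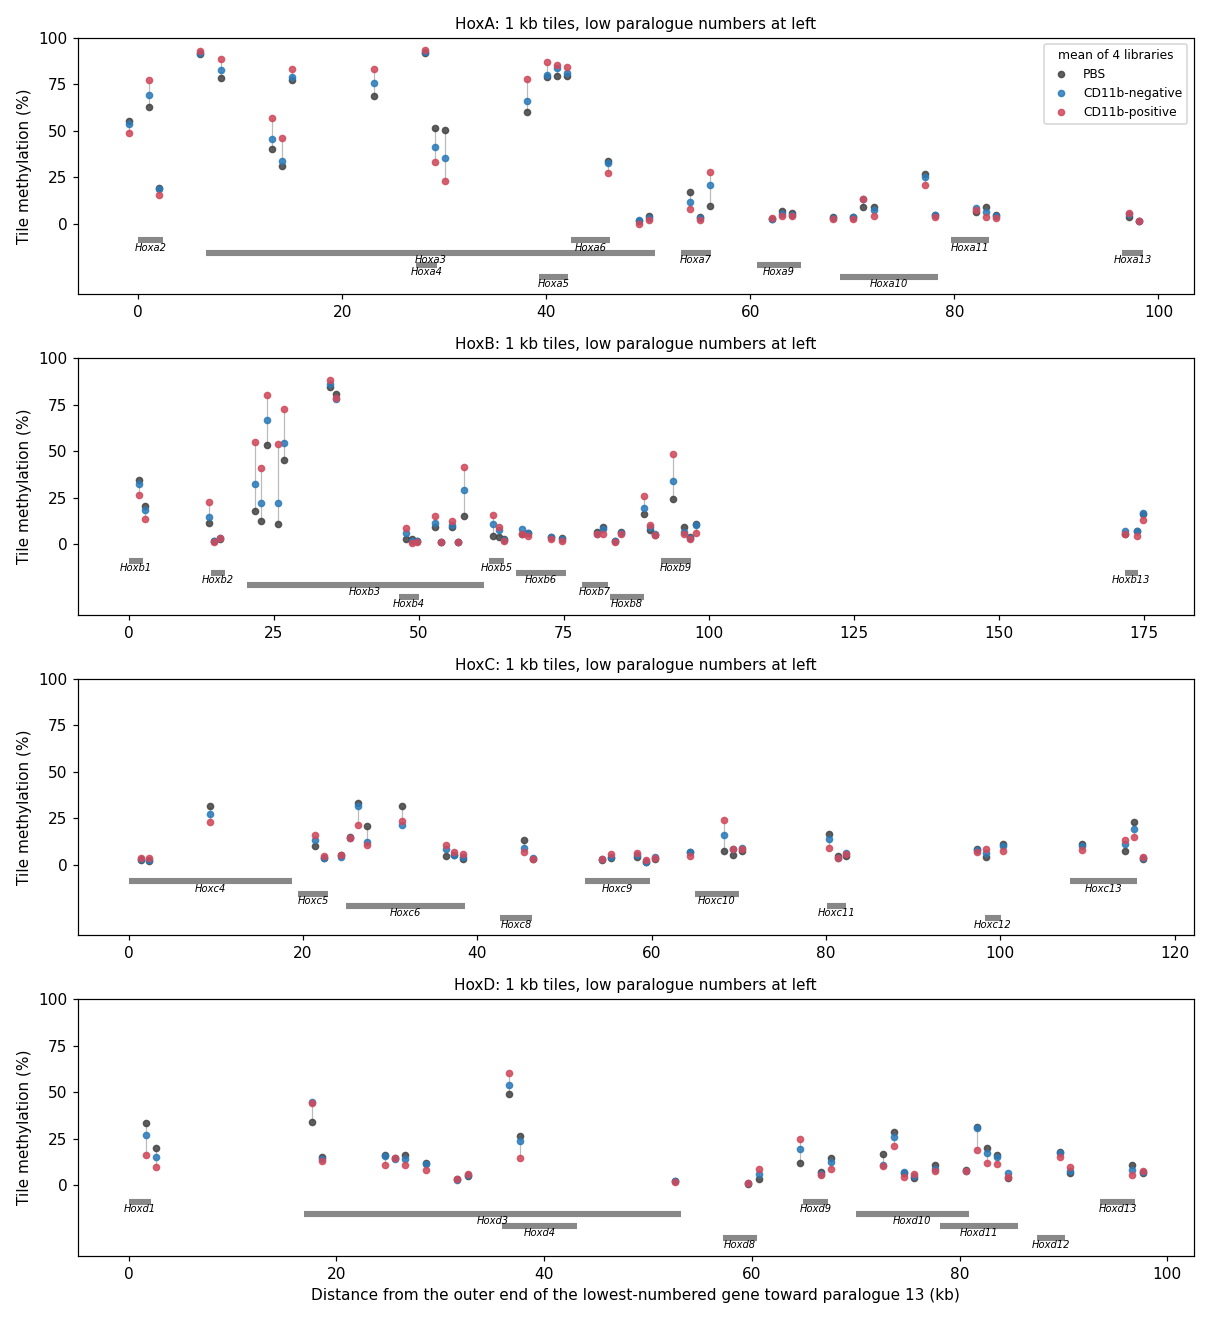
Methylation of 1 kb tiles (y axis, percent, means of 4 libraries per group) against distance in kb from the outer end of the lowest-numbered gene toward paralogue 13 (x axis), for each cluster, with annotated genes as grey bars and a grey line joining the PBS and CD11b-positive means. HoxA is methylated from Hoxa2 to Hoxa6 and low from Hoxa7 on, and the longest upward lines lie in the Hoxb3 span.

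The other clusters had no such block. In HoxB only Hoxb1, a hindbrain gene, at 30.6% ± 2.07, and Hoxb3, at 28.6% ± 2.66, were over 20% in PBS, while Hoxb4, known for expanding blood stem cells, stood at 2.35% ± 0.882 and Hoxb5, a marker of long-term blood stem cells, at 3.38% ± 0.206. In HoxC only Hoxc4 was over 20%, at 21.7% ± 1.25, and the others ranged from 3.35% in Hoxc9 to 15.2% in Hoxc13, a gene of hair and nail formation. In HoxD the windows over 20% were Hoxd1, at 31.6% ± 3.70, and Hoxd4, at 38.1% ± 2.02, and the lowest of all Hox windows was Hoxd8 at 1.45% ± 0.161. By paralogue, the median PBS window was 30.6% over the 7 genes of paralogues 1 to 3, 7.84% over the 15 of paralogues 4 to 8 and 7.58% over the 16 of paralogues 9 to 13, and all 16 of the last class were under 20%. The windows of Hoxa3, Hoxb3 and Hoxd3 also hold CpGs of higher paralogues. Within 1 kb to each side of the 5′ end the medians were 9.43%, 4.33% and 7.01% in the same order, with Hoxa3 at 4.25%.

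**Figure D2:**
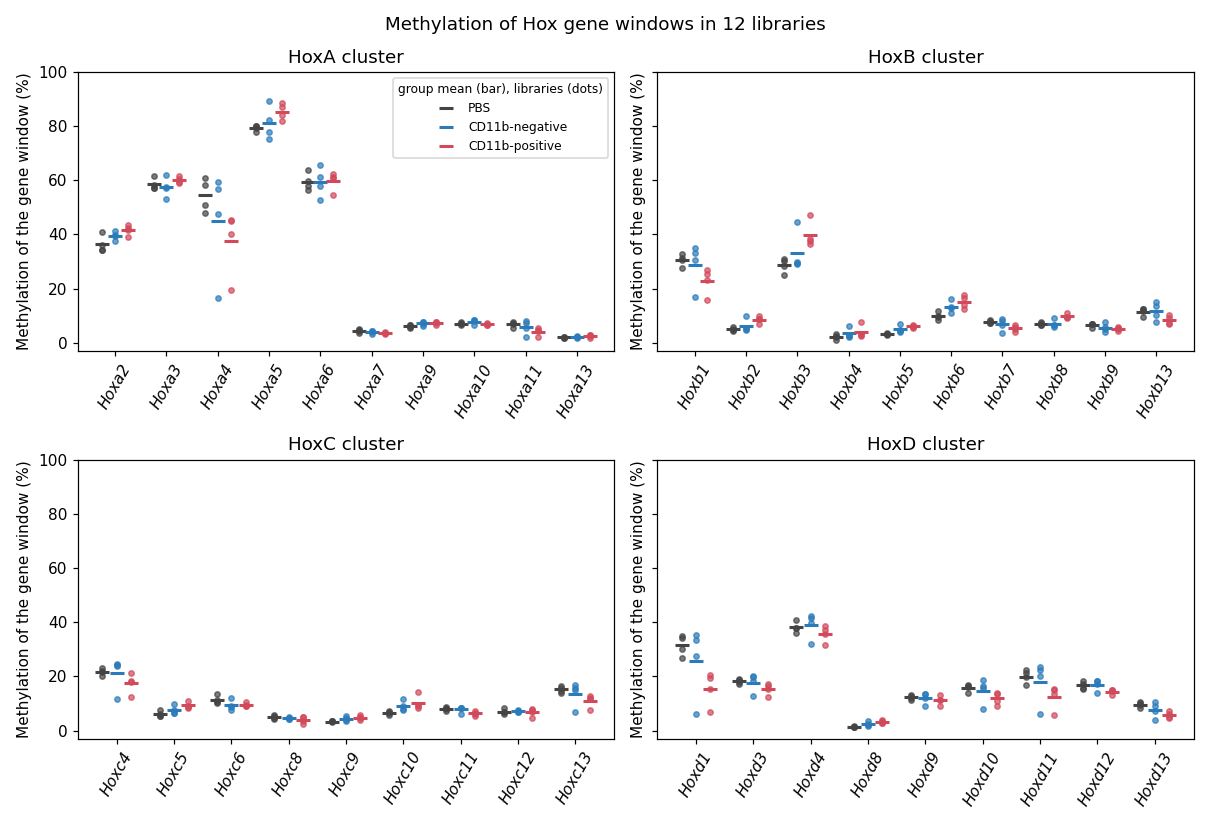
Methylation of the 38 Hox gene windows (y axis, percent) by gene in order of paralogue (x axis), with 1 dot per library and a bar for each group mean. The 5 HoxA genes from Hoxa2 to Hoxa6 stand above 30% in PBS and the 5 from Hoxa7 to Hoxa13 below 10%, and in Hoxa4 and Hoxd1 single CD11b-negative and CD11b-positive dots lie far below the rest.

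Between CD11b-positive and PBS libraries, Hoxd1 and Hoxa4 lost methylation and Hoxb3 gained it. A window was called when the adjusted p over all gene windows was under 0.05 (quasi-binomial F test, Benjamini-Hochberg) and group means differed by at least 10 percentage points. By that rule 3 of 38 Hox windows were called (7.89%), against a background of 20.6% of all gene windows. Counted by direction, 1 was higher (background 16.9%) and 2 were lower (background 3.72%). Over windows of 1 kb to each side of the 5′ end, 4 of the 35 measured Hox genes were called (background 14.5% of all gene ends), 2 higher (background 9.72%) and 2 lower (background 4.77%). The median difference of the 38 gene windows was -0.99 points, and that of all gene windows was 2.17 points. With the Y-linked share of each library as a term, 0 Hox gene windows and 0 Hox 5′ windows were called, and so were 0 of all 16539 gene windows: since PBS and CD11b-positive libraries do not overlap in that share, it and the group cannot be told apart in this comparison.

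Hoxd1, a gene of the embryonic hindbrain and of sensory neurons, lies at chr2:74762980-74765142 on the plus strand (mm10) and had 76 CpGs in its window, all within 1 kb of its 5′ end. The 4 PBS libraries had 35.0%, 26.9%, 34.0% and 30.2% methylation. The 4 CD11b-negative libraries had 27.4%, 5.97%, 33.6% and 35.2%, and the 4 CD11b-positive libraries 15.4%, 6.80%, 20.5% and 19.3%. Every CD11b-positive library was below every PBS library, and library 2 of the CD11b-negative group was as low as the lowest CD11b-positive library while its other libraries lay within or beside the PBS range. Methylation fell by 16.1 points (SE 3.61, adjusted p = 0.00482, quasi-binomial F test). The tile chr2:74763001-74764000 showed the largest change in HoxD, from 33.4% to 16.4% over 62 CpGs, and the tile before it, chr2:74762001-74763000, went from 20.03% to 9.71%. Over the 300-base promoter, which holds the sequence shown above, 18 CpGs went from 19.6% to 8.99% (adjusted p = 0.0360), the 1 call among 11 measured Hox promoters (9.09%, background 1.23%). Both Hoxd1 windows kept their call with any 1 library left out, with differences from -17.7 to -13.2 points, but the 5′ window lost it in a fit of all 12 libraries (adjusted p = 0.0764), and with the Y-linked share as a term the difference was -2.5 points (adjusted p = 0.741 over the gene window).

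Hoxa4, a gene of cervical vertebral patterning, lies at chr6:52189682-52191703 on the minus strand and had 86 CpGs. Its PBS libraries had 60.9%, 47.9%, 58.2% and 50.9% methylation, its CD11b-negative libraries 47.6%, 16.6%, 59.3% and 56.6%, and its CD11b-positive libraries 44.9%, 19.6%, 40.3% and 45.2%. The groups PBS and CD11b-positive do not overlap, but library 2 lay far below the others in both treated groups. The window fell by 17.0 points (SE 6.79, adjusted p = 0.0316, quasi-binomial F test). The loss sat at the 5′ end, where 76 CpGs went from 51.2% ± 6.70 to 31.8% ± 12.3, and it was largest in the tile just before the gene, chr6:52192001-52193000, at 50.6% ± 9.15 in PBS and 22.8% ± 14.8 in CD11b-positive libraries. In that tile the CD11b-positive libraries had 23.7%, 1.97%, 29.1% and 36.3% and the PBS libraries 58.1%, 38.3%, 57.0% and 49.0%. The Hoxa4 window lost its call without PBS 1 (adjusted p = 0.0754), without PBS 3 (0.0731) and without PBS 4 (0.0515), and in a fit of all 12 libraries (0.151). The 5′ window, at an adjusted p of 0.0485, lost it without 7 of the 8 libraries in turn (every one but CD11b-positive 2), under edgeR (adjusted p = 0.0699), under limma (0.0828), with at least 20 calls (0.0509) and in the fit of all 12 libraries (0.163). With the Y-linked share as a term the gene window had a difference of +5.72 points, the opposite direction.

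Hoxa5 lies next to Hoxa4 and went the other way. Its libraries had 77.7%, 79.2%, 80.03% and 80.1% methylation in PBS and 81.8%, 88.5%, 84.2% and 86.9% in the CD11b-positive group. The CD11b-negative libraries had 75.4%, 89.4%, 82.1% and 77.7% and spread beyond both groups, with a mean of 81.2%. The PBS and CD11b-positive libraries did not overlap, and the difference of 6.11 points (SE 1.59) had an adjusted p of 0.00583 (quasi-binomial F test) but was under the 10 points asked for. The tile chr6:52200001-52201000 in between, which belongs to the annotated span of Hoxa3, was called, from 59.9% to 77.8% over 17 CpGs. So were 4 other tiles of the Hoxa3 and Hoxa2 spans, further from Hoxa13, each higher by between 14.4 and 17.0 points. The rest of the tiles there were not called higher, and the tile just before Hoxa4, given above, was lower. Hoxa3 as a whole, which holds gains and losses, differed by only 1.53 points (SE 1.2, adjusted p = 0.319).

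Hoxb3, a gene of the hindbrain and of blood progenitors, spans chr11:96307101-96347930 on the plus strand and had 184 CpGs. The PBS libraries had 24.97%, 30.8%, 30.3% and 28.2% methylation. The CD11b-negative libraries had 29.6%, 44.5%, 29.1% and 30.02%, and the CD11b-positive libraries 37.7%, 47.2%, 38.4% and 36.7%. All CD11b-positive libraries were above all PBS libraries, and library 2 was the highest of both treated groups. Methylation rose by 11.4 points (SE 2.76, adjusted p = 0.00420, quasi-binomial F test). Without CD11b-positive 2 the difference was 9.02 points, under the 10 asked for, at an adjusted p of 0.00271, and without all libraries numbered 2, a choice made after seeing the data, it was 9.77 points.

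The gain in Hoxb3 was carried by 5 tiles from chr11:96341001-96342000 to chr11:96346001-96347000, at the end of the gene that faces Hoxb2, where the antisense RNA gene Hoxb3os overlaps it. All 5 were called higher, by 26.7 to 42.6 points. The largest change of all Hox tiles was in chr11:96342001-96343000, over 8 CpGs. Its PBS libraries had 9.13%, 10.8%, 12.6% and 11.98% methylation, its CD11b-negative libraries 10.1%, 57.3%, 18.8% and 2.5%, and its CD11b-positive libraries 86.7%, 33.3%, 48.7% and 46.1%. The CD11b-positive libraries were all above the PBS libraries but ranged widely, and here library 1 rather than library 2 was the highest of the group. The tile rose by 42.6 points (SE 11.5, adjusted p = 0.00280, quasi-binomial F test). Reads cannot be assigned to Hoxb3 or to Hoxb3os in DNA, and the window of Hoxb3os itself, over 134 CpGs, stood at 14.9% ± 3.35 in PBS and 32.0% ± 5.29 in CD11b-positive libraries. The window of Hoxb3os also covers the Hoxb2 gene, whose own window went from 5.02% to 8.57%.

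Hoxa7 and Hoxa9, the latter a driver of leukaemic self-renewal, were called only at their 5′ ends and on few CpGs. At Hoxa7 (chr6:52215623-52218573, minus strand) the 5′ window had 5 CpGs, with 7.45%, 10.4%, 9.85% and 9.42% methylation in PBS, 13.8%, 40.4%, 14.9% and 14.3% in CD11b-negative and 25.8%, 35.8%, 26.0% and 22.7% in CD11b-positive libraries. The groups PBS and CD11b-positive were well apart, and library 2 alone was high in the CD11b-negative group. Methylation rose by 18.3 points (SE 2.93, adjusted p = 0.00830, quasi-binomial F test). At Hoxa9 (chr6:52223097-52227370, minus strand) the 3 CpGs had 8.48%, 15.9%, 11.2% and 13.1% in PBS, 20.2%, 47.0%, 12.2% and 10.9% in CD11b-negative and 29.9%, 42.6%, 24.1% and 21.1% in CD11b-positive libraries. Again PBS and CD11b-positive libraries did not overlap and library 2 was the highest in all 3 groups. The difference was 17.2 points (SE 5.02, adjusted p = 0.0205, quasi-binomial F test). These CpGs do not stand for the genes: over the whole window Hoxa7 went from 4.51% to 3.59% (38 CpGs, adjusted p = 0.0518) and Hoxa9 from 6.11% to 7.27% (43 CpGs, adjusted p = 0.152). Both 5′ calls were lost in the fit of all 12 libraries (adjusted p = 0.0503 and 0.1), and that of Hoxa9 also without PBS 1, PBS 3 or PBS 4 (adjusted p from 0.0539 to 0.0656).

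**Figure D3:**
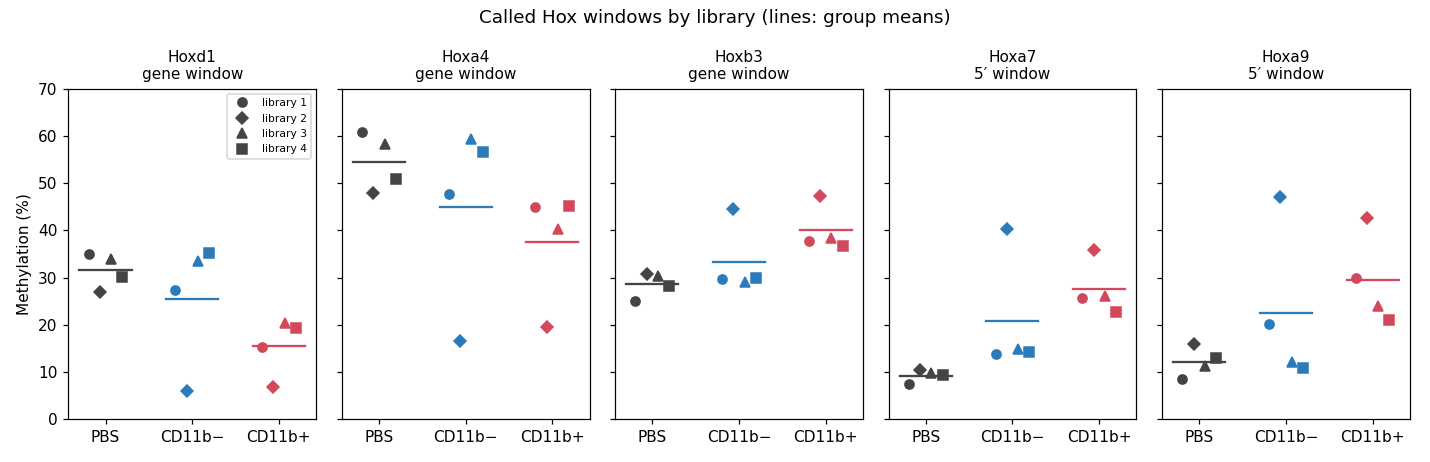
Methylation (y axis, percent) of the Hox windows called between CD11b-positive and PBS libraries, with 1 point per library, its shape giving the library number, and a line at each group mean. Library 2 (diamonds) lies lowest in Hoxd1 and Hoxa4 and highest in Hoxb3, Hoxa7 and Hoxa9 in both treated groups.

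Below the size limit many more Hox windows differed by small amounts. Without a minimum difference 22 of 38 windows had an adjusted p under 0.05 (57.9%, background 44.6%), 10 of them higher and 12 lower in CD11b-positive libraries, as did 15 of 35 5′ windows (42.9%, background 31.4%) and 86 of 143 tiles (background 59.7%). The libraries of PBS and CD11b-positive did not overlap in 11 windows that were higher (28.9%, background 39%) and in 11 that were lower (28.9%, background 5.83%). Of the 10 higher ones, 5 were HoxB genes: Hoxb2 (5.02% to 8.57%), Hoxb3, Hoxb5 (3.38% to 6.07%), Hoxb6 (9.89% to 15.2%) and Hoxb8 (7.10% to 9.79%), the last known for holding myeloid progenitors in an immature state. Of the 12 lower ones, 5 were HoxD genes: Hoxd1, Hoxd3 (18.2% to 15.3%), Hoxd10 (15.8% to 11.9%), Hoxd11, a gene of forearm and kidney (19.96% to 12.4%), and Hoxd13, a gene of the digits (9.65% to 5.85%). Hoxd8 moved against its neighbours, from 1.45% ± 0.161 to 3.23% ± 0.495 (adjusted p = 0.00145). The other lower windows were Hoxa4, Hoxa11, Hoxb1, Hoxb7, Hoxb13, Hoxc4 and Hoxc13, and the other higher ones Hoxa5, Hoxc5, Hoxc9, Hoxc10 and Hoxd8.

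**Figure D4:**
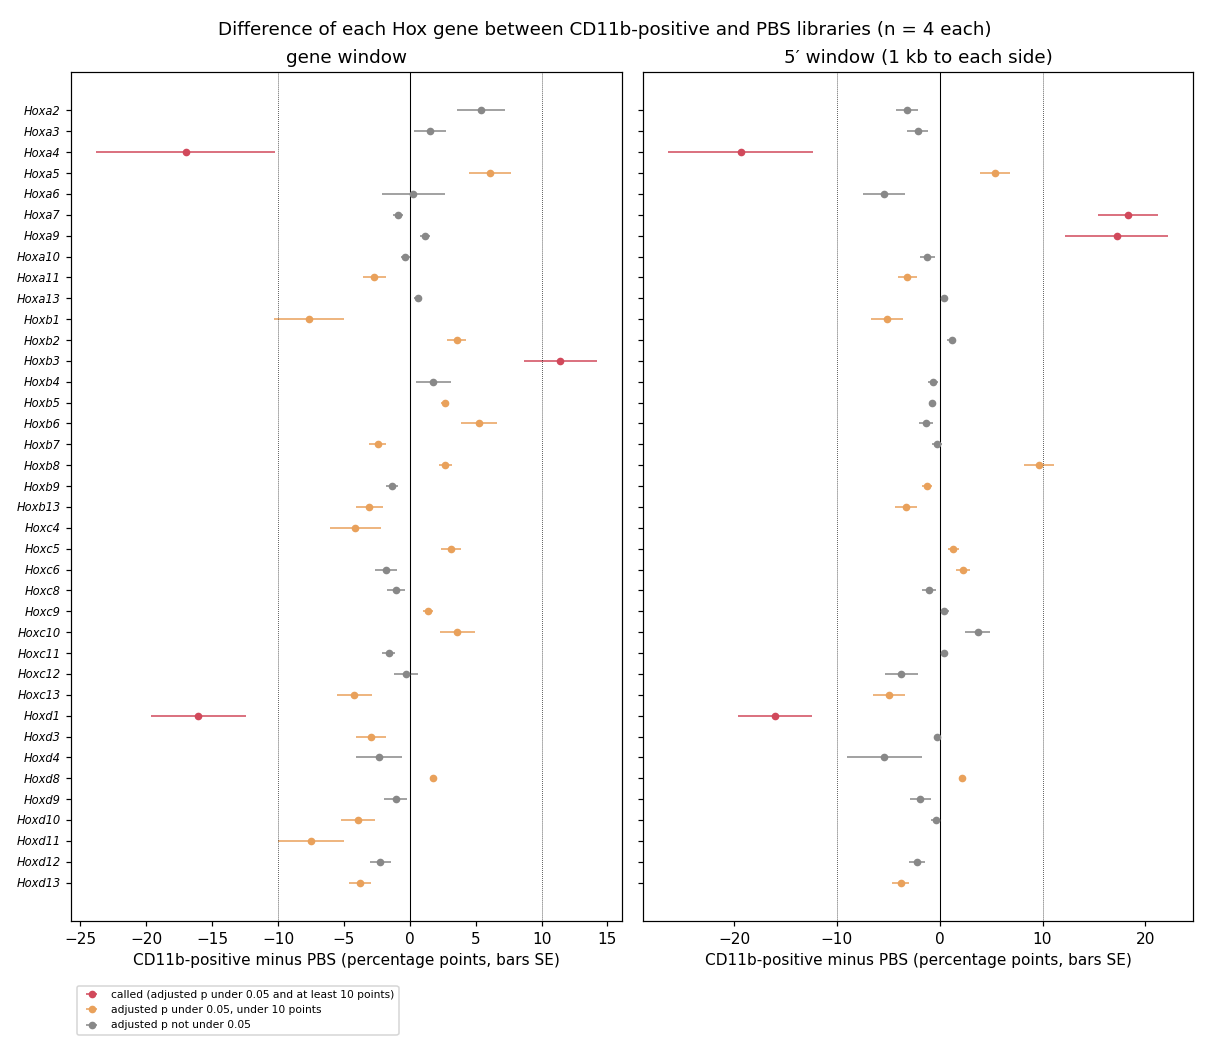
Difference between CD11b-positive and PBS libraries in percentage points (x axis, bars are SE, n = 4 per group) for each Hox gene (y axis), over the gene window and over the 5′ window, with dotted lines at 10 points to either side. In the left panel Hoxb3 lies beyond the limit on the right and Hoxa4 and Hoxd1 beyond it on the left, and most other genes lie within 5 points of 0.

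Along the clusters, 26 of 143 tiles were called between CD11b-positive and PBS libraries (18.2%, background 36.2%), 19 higher (background 32.5%) and 7 lower (background 3.76%). HoxB had 9 tiles higher and 0 lower of 41, HoxA 6 higher and 2 lower of 36, HoxC 1 and 1 of 34, and HoxD 3 higher and 4 lower of 32. In HoxC the largest change was in chr15:102968001-102969000 within Hoxc10, from 7.38% to 23.8% over 6 CpGs. Its PBS libraries had 3.40%, 11.1%, 7.47% and 7.54% and its CD11b-positive libraries 20.3%, 35.6%, 19.9% and 19.5%, with no overlap. Of single CpGs, 308 of 2607 were called (11.8%, background 16.7%), 170 higher (6.52%, background 13.2%) and 138 lower (5.29%, background 3.47%). They split by cluster: 96 higher and 12 lower in HoxB, 55 and 40 in HoxA, 7 and 21 in HoxC, and 12 and 65 in HoxD. By starting level, 89 of the 1862 CpGs under 20% in PBS were called higher and 13 lower, while of the 636 between 20% and 80%, 79 were called higher and 122 lower. Over all CpGs used, 29439 of the 590249 under 20% were called higher and 1718 lower, and of the 264392 between 20% and 80%, 106160 were called higher and 30754 lower. The count of CpGs was 173, 186 and 200 without PBS 1, PBS 3 and PBS 4 in turn, and 84 in the fit of all 12 libraries.

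Averaged over its CpGs, HoxB was higher and HoxD lower in CD11b-positive than in PBS libraries. HoxB libraries had 12.6%, 13.6%, 13.04% and 13.4% in PBS, 13.9%, 17.5%, 14.1% and 13.5% in CD11b-negative and 17.1%, 17.8%, 15.9% and 16.2% in CD11b-positive. The PBS and CD11b-positive values do not overlap, and CD11b-negative 2 lay among the CD11b-positive libraries. The rise was not even along HoxB. Its median difference was 2.24 points over gene windows, -0.717 over 5′ windows and -0.331 over tiles. The window of Hoxb3os, over 134 CpGs shared in part with the windows of Hoxb3 and Hoxb2, rose from 14.9% to 32.0%. HoxD libraries had 16.9%, 13.4%, 16.4% and 15.5% in PBS, 15.4%, 7.61%, 16.7% and 17.2% in CD11b-negative and 11.2%, 7.67%, 13.01% and 13.1% in CD11b-positive. Here too PBS and CD11b-positive do not overlap, by a narrow margin, and library 2 was the lowest of each group. HoxA averaged 29.1% ± 0.996, 28.7% ± 2.33 and 27.9% ± 1.46 in PBS, CD11b-negative and CD11b-positive libraries, and HoxC 11.2% ± 0.753, 10.7% ± 2.21 and 9.45% ± 0.79. In HoxC the lowest PBS library (10.1%) lay above the highest CD11b-positive library (9.97%), while in HoxA the groups overlapped. Over all 2607 CpGs the means were 17.9% ± 0.755, 17.7% ± 1.92 and 16.8% ± 1.10, and these overlap between all groups. No test was made of these averages, because the genes were chosen with earlier results of these data known.

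In HoxA dense CpGs were lower and sparse CpGs, those that miss the density limit given above, were higher in CD11b-positive libraries. The 513 dense CpGs of HoxA averaged 28.6% ± 1.32 in PBS and 25.4% ± 2.44 in CD11b-positive libraries, while its 197 sparse ones averaged 30.3% ± 0.306 and 34.4% ± 1.15, and neither pair overlapped. In HoxD the 584 dense CpGs averaged 15.3% ± 1.87 and 9.65% ± 3.13 and the 199 sparse ones 16.2% ± 0.552 and 15.9% ± 1.04. In HoxC both classes had lower means in CD11b-positive libraries, with overlap, at 9.47% ± 0.588 in PBS and 7.97% ± 0.984 over 266 dense CpGs and at 13.5% ± 1.02 and 11.3% ± 0.748 over 208 sparse ones. HoxB was higher in both classes, at 13.2% ± 0.467 in PBS and 16.7% ± 1.04 in CD11b-positive libraries over 475 dense CpGs and at 13.1% ± 0.518 and 17.0% ± 1.25 over 165 sparse ones. Other homeobox and developmental factor genes, a list of 117 of which 116 were measured, had 13.6% ± 1.56 and 8.38% ± 2.63 in dense CpGs and 20.2% ± 0.324 and 21.5% ± 0.208 in sparse ones. All gene windows together had the same split, from 8.76% to 6.55% in dense CpGs and from 50.8% to 59.2% in sparse ones. Of these 116 windows, 3 were called higher and 17 lower (17.2% called, background 20.6%), led by Gbx2, a midbrain and hindbrain factor, from 59.1% to 28.0%, and by Cux2, a cortical neuron factor, from 40.6% to 55.1%. Their median difference was -1.67 points, beside -0.99 for the Hox windows.

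**Figure D5:**
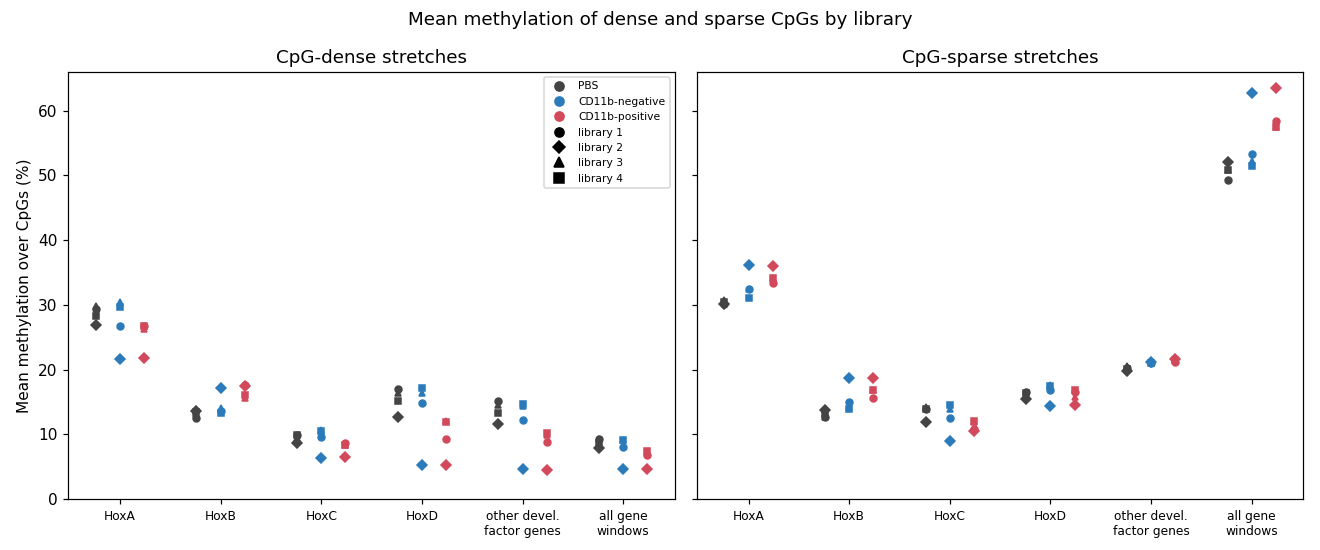
Mean methylation (y axis, percent) over dense CpGs (left) and sparse CpGs (right) of each Hox cluster, of other developmental factor genes and of all gene windows (x axis), with 1 point per library, colour giving the group and shape the library number. In dense DNA the CD11b-positive means lie below PBS everywhere but in HoxB, and library 2 (diamonds) is the farthest from PBS in most columns.

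Between CD11b-negative and PBS libraries no Hox feature was called. The counts were 0 of 38 gene windows, 0 of 35 5′ windows, 0 of 143 tiles and 0 of 2607 CpGs, and the background was 0% of all features of each kind (quasi-binomial F test, Benjamini-Hochberg). An unadjusted p under 0.05 was reached by 4 gene windows (10.5%, 5.5% of all gene windows), 2 5′ windows (5.71%, 5.27% of all), 17 tiles (11.9%, 9.9% of all) and 91 CpGs (3.49%, 5.02% of all), and edgeR and limma also called 0 windows and tiles. The smallest adjusted p of a Hox window was 0.727. In 4 windows all CD11b-negative libraries were above all PBS libraries (10.5%, background 5.4%), each by little: Hoxd8 (1.45% and 2.46%), Hoxb5 (3.38% and 5.05%), Hoxc9 (3.35% and 4.45%) and Hoxc10 (6.66% and 9.03%). In 0 windows were they all below (background 0.683%).

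Between CD11b-positive and CD11b-negative libraries the answer depended on pairing libraries by number. The labels do not say what that number stands for. Only the libraries numbered 2 correlated best with each other, as the section on processing shows. Calls of the paired fit therefore hold only if the numbers mark pairs. Taken as independent groups, 0 of 38 gene windows, 0 of 35 5′ windows, 0 of 143 tiles and 0 of 2607 CpGs were called, and the background was 0% of all features of each kind (quasi-binomial F test, Benjamini-Hochberg). An unadjusted p under 0.05 was reached by 1 gene window (2.63%, 18.5% of all gene windows), 4 5′ windows (11.4%, 7.57% of all), 15 tiles (10.5%, 10.8% of all) and 180 CpGs (6.9%, 6.81% of all). Here edgeR and limma also called 0 windows and tiles, and the smallest adjusted p of a Hox window was 0.269. In 0 of 38 windows did the groups stand apart with CD11b-positive higher (background 4.91%) or lower (background 0.333%). With the replicate number as a block, which uses the differences within pairs of same-numbered libraries, 1 5′ window (background 5.82%), 12 tiles (background 13.6%), 8 of them higher, and 140 CpGs (background 6.81%), 70 in each direction, were called, and gene windows stayed at 0 (background 0.556%). Without CD11b-negative 2, the library nearest to the CD11b-positive group, the unpaired counts were 3 gene windows (background 17.4%), 1 5′ window (background 3.05%), 23 tiles (background 20.5%) and 175 CpGs (background 7.32%).

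The 5′ window called in the paired fit was that of Hoxd1, lower in CD11b-positive cells by 10.2 points (adjusted p = 0.00993, adjusted over all gene ends). The gene window of Hoxd1 holds the same 76 CpGs and the same difference but was not called when adjusted over all gene windows (adjusted p = 0.0583). Its library values, given above, were lower in 3 of 4 pairs and about equal in the pair numbered 2. Of the 12 tiles, 6 lay in the span of Hoxb3 and were all higher in CD11b-positive libraries, including the 5 tiles of the run near Hoxb2. In chr11:96346001-96347000 CD11b-negative libraries averaged 32.5% and CD11b-positive libraries 54.8%, and all 4 pairs were higher, by 6.80 to 37.2 points (adjusted p = 0.00318). In chr11:96342001-96343000, the tile with the largest difference, the means were 22.2% ± 24.3 and 53.7% ± 23.0, but 1 pair of 4 went the other way, with pair differences from -24.0 to 76.6 points (adjusted p = 0.0449). In HoxA the tile before Hoxa4 was lower in all 4 pairs, by 1.80 to 20.8 points (adjusted p = 0.00438), and tiles chr6:52175001-52176000 and chr6:52200001-52201000 were higher in all 4. The tile with the largest difference of means in HoxA, chr6:52176001-52177000 in the span of Hoxa3, was not called (33.5% ± 12.6 and 46.3% ± 4.31, adjusted p = 0.0724). In HoxD and HoxC the largest differences were in chr2:74683001-74684000 within Hoxd11 (30.7% ± 15.2 and 18.8% ± 7.58, adjusted p = 0.00299) and in chr15:103010001-103011000 within Hoxc6 (31.6% ± 11.9 and 21.6% ± 2.76, adjusted p = 0.0457), each lower in 3 of 4 pairs.

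Few genes that work with or control Hox genes were called. Of 40 cofactors and regulators, among them the Meis partners, the Cdx activators, and Polycomb and Trithorax subunits, 1 was called higher and 1 lower between CD11b-positive and PBS libraries (5% called, background 20.6%). Cdx4, an X-linked activator of Hox genes in blood formation, fell from 41.9% ± 4.26 to 25.5% ± 11.7 (adjusted p = 0.0367, quasi-binomial F test). Mean methylation of the X chromosome was 55.1% ± 1.59 in PBS and 52.5% ± 3.09 in CD11b-positive libraries. Its part in the fall of Cdx4 was not tested. Like every other gene window in this comparison, Cdx4 was not called with the Y-linked share of each library as a term. Of the 12 measured protein-coding genes beside the clusters, 4 were called higher and 0 lower (33.3% called, background 20.6% in either direction and 16.9% higher): Skap1, next to Hoxb1 and coding for a T cell adaptor, from 54.5% to 76.0%, and Snx10, Ttll6 and Calcoco2. The median difference was 0.866 points for the cofactors and 1.38 points for the flanking genes, against 2.17 points for all gene windows.

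Noncoding genes inside the clusters were not part of the fit over protein-coding genes, and their values are given without a test. The antisense RNA genes of the methylated HoxA block were high, Hoxaas2 at 88.6% ± 0.249 in PBS and 91.8% ± 2.80 in CD11b-positive libraries and Hoxaas3 at 58.3% ± 2.59 and 62.4% ± 3.06. Hotairm1, a myeloid RNA at the front of HoxA, stood at 39.7% ± 2.52 and 34.3% ± 2.54. Hottip, beyond Hoxa13, had 2.49% ± 0.763 and 3.70% ± 0.725, and Hotair, in HoxC, 2.19% ± 0.389 and 3.38% ± 0.639. Of the microRNA genes of the miR-196 family, which share a seed and target Hox messages, Mir196b in HoxA stood at 4.22% ± 0.566 and 2.68% ± 0.791, Mir196a-1 in HoxB at 28.7% ± 2.46 and 35.4% ± 7.39, and Mir196a-2 in HoxC at 6.83% ± 0.991 and 4.90% ± 0.402. Mir10a and Mir10b had fewer than 3 CpGs and have no value here.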

How the data were processed

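Methylation of mouse Hox genes was measured by reduced representation bisulfite sequencing in 12 libraries. Each deposited file holds raw counts of methylated and unmethylated calls of 1 library, by cytosine and strand. Build mm10 and the tools methylKit 1.20.0, Bismark, Trim Galore 0.6.4 and cutadapt 2.7 are named per the submitters' processing notes. For duplicate removal, the conversion rate and the version and settings of Bismark, the answer is: not given in the sources used here. Reads without molecular identifiers are not independent molecules.

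Strands were summed and CpGs with at least 10 calls in all libraries kept. Calls were pooled per gene window (1 kb flanks), 5′ window (1 kb to each side), 1 kb tile, 300-base RefSeq promoter (chosen after seeing the files) or CpG. A percentage is methylated calls over all calls, and cluster averages weight CpGs equally. Each comparison was a quasi-binomial logistic model of the libraries of its own groups, with an F test, a dispersion moderated by empirical Bayes and not under 1, and Benjamini-Hochberg adjustment over all features. It was run on simulated data with independent noise in each window and library, which hold no shift shared by a whole library. A call needs an adjusted p under 0.05 and 10 points, so a feature with a PBS mean under 10% cannot be called lower than PBS. The 5′ end is the annotated gene end that faces paralogue 13, which can be the start of a long transcript; for Hoxb3, Hoxc4 and Hoxd11 it held fewer than 3 CpGs. Exons and introns were not used here. Gene names and positions come from RefSeq (GRCm38.p6).

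Alternatives were 5 or 20 calls, 10 CpGs, edgeR 4.0.16 (quasi-likelihood), limma 3.58.1 (equal weight per CpG), all 12 libraries in 1 fit, the replicate number as a block, the Y-linked share as a term, no minimum difference, and each library left out. Python 3.11.15 with numpy 2.4.6 and R 4.3.3 were used. Members called in a comparison get every library's value, others a group mean or range. Per cluster, the tile with the largest difference is named for CD11b-positive against PBS and against CD11b-negative. In lists, the called genes with the largest gain and loss are named, and genes named beyond this rule were chosen after their values were seen. A called gene of the cofactor list is not reported here. The members and lists were chosen with earlier results of these data known.

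CD11b-positive and CD11b-negative libraries share replicate numbers in the labels. Deviations of same-numbered libraries from their group means, over 1 kb tiles, correlated at 0.15, 0.926, 0.651 and 0.678, all above 0.1, so the numbers were taken to pair these libraries. Libraries with other numbers correlated as well or better in 3 of 4 cases: CD11b-positive 1 with CD11b-negative 4 at 0.208, 3 with 4 at 0.654 and 4 with 3 at 0.684, so that only number 2 stands apart. The source of the pairing is this correlation, since the labels do not say what the number stands for.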

Additional observations from a re-analysis of the deposited data

Results flagged for a closer look

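In 7 of 36 groups of 4 libraries that were tested, 1 library lay so far from the other 3 that its gap, as a share of the group's range, passed the 95% critical value of Dixon's test, which chance gives in about 1 of 20 groups. Every one of these 7 libraries is numbered 2. The groups share libraries and CpGs, and some are windows chosen because they were called. The count of 7 can therefore not be set against the rate for independent groups. Mean methylation of HoxA was 25.7% in CD11b-positive 2 and 28.5% to 28.8% in the other CD11b-positive libraries. Mean methylation of HoxB was 17.5% in CD11b-negative 2 and 13.5% to 14.1% in the rest of its group, and that of HoxC was 10.1% in PBS 2 and 11.6% to 11.7% in the rest. The Hoxb3 gene window stood at 44.5% in CD11b-negative 2 beside 29.1% to 30.02%, and at 47.2% in CD11b-positive 2 beside 36.7% to 38.4%. The Hoxa4 5′ window stood at 13.4% in CD11b-positive 2 beside 36.1% to 39.7%, and the Hoxa7 5′ window at 40.4% in CD11b-negative 2 beside 13.8% to 14.9%.

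Calls on Y-linked genes, which no Hox comparison uses directly, averaged 28.5 per 1000000 autosomal calls in CD11b-positive libraries (23.8 to 41.3), above every PBS library (5.52 to 18.6). The part of this share in the Hox differences was not tested beyond the fit that holds it as a term.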

How the results depend on the processing

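Alternatives are 1 change each from the settings above. For CD11b-positive against PBS, the Y-linked share as a term left 0 Hox gene windows, 0 5′ windows, 0 tiles and 0 CpGs, and reversed Hoxa4 to +5.72 points in its gene window and +5.80 in its 5′ window; the cause was not tested. A fit of all 12 libraries left 0 5′ windows and 84 CpGs, and at least 10 CpGs per window left 1 5′ window, Hoxd1. With no minimum difference the counts were 22 gene windows, 15 5′ windows and 86 tiles. Leaving out 1 library gave 2 to 3 gene windows, 2 to 4 5′ windows, 20 to 28 tiles and 173 to 307 CpGs. For CD11b-positive against CD11b-negative, the replicate block gave 1 5′ window, 12 tiles and 140 CpGs and changed no call of a gene window, and leaving out 1 library gave 0 to 3 gene windows, 0 to 1 5′ windows, 0 to 23 tiles and 0 to 175 CpGs, the upper ends without CD11b-negative 2. Without all libraries numbered 2, chosen after seeing the data, the counts were 2, 2, 19 and 203. With the Y-linked share 1 CpG was called there, and 1 for CD11b-negative against PBS. In the comparisons with PBS the same-numbered libraries with number 4 correlated at -0.0982 and -0.125, so those numbers were not taken as pairs (not every library correlated best with its own number). The block gave 3 gene windows, 4 5′ windows, 26 tiles and 362 CpGs for CD11b-positive against PBS, and 0 of each for CD11b-negative against PBS. No other count moved by more than 1.5 times, and the mean difference over all Hox CpGs stayed within 1 SD between libraries of its value under each alternative, although it was small and did move: for CD11b-positive against PBS from -1.05 points to -0.51 without CD11b-positive 2 and to -0.474 with calls pooled, for CD11b-negative against PBS from -0.198 to 0.713, the opposite sign, without CD11b-negative 2, and for CD11b-positive against CD11b-negative from -0.855 to between -1.77 (without CD11b-negative 2) and -0.246 (calls pooled). With at least 5 or 20 calls the CpG count for CD11b-positive against PBS was 329 or 276.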
